A study of Penicillium oxalicum with 6 samples.

Results

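The 75 genes described here differed less than 2-fold in mean transcript level between a transcription factor deletion strain and its control, while 1 of the 3 deletion libraries stood at least 2-fold above or below the mean of the other two. They were chosen from 9834 gene IDs of Penicillium oxalicum, a mould known for secreting enzymes that degrade cellulose and other plant cell-wall polymers. A gene was taken when its mean estimated count over the 3 deletion libraries was at least 20, its ratio of mean FPKM between the strains lay above 0.5 and under 2, and its FPKM (fragments scaled to gene length and library size) in deletion replicate 3 was at least 2 times, or at most 0.5 times, the mean of deletion replicates 1 and 2. Genes that averaged 1000 FPKM or more in both strains, the IDs from POX09343 to POX09834 and POX02412 were left out. After these exclusions and the count minimum 7878 genes were eligible, and 6404 of them met the condition on the strain ratio. In 41 of the 75 genes deletion replicate 3 was the high library, and in 34 it was the low one.

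The deletion strain is labelled MuPOX09752 and lacks the gene POX09752, which the study describes as a transcription factor, and the control strain is labelled Ku70. The sample titles call the control mutant Ku70, so the control is itself a mutant strain. Ku70 takes part in joining broken DNA ends without a matching template, and in fungi its loss makes targeted gene deletion more efficient. All 6 libraries, 3 per strain, were made from mycelium kept for 24 h in liquid medium with 2% Avicel, a microcrystalline cellulose. The study's stated aim concerned the transcripts of genes for cellulases and xylanases when this factor is missing. Transcription factors of filamentous fungi switch groups of genes for secreted enzymes on or off according to the carbon source, and many such genes are read at low levels until an inducing sugar is present. The stated growth procedure names a single strain, MuKu70, for every library. The sources used here do not say whether the 3 libraries of a strain came from separate cultures or whether the deletion strain was 1 transformant, so the spread described below is a spread between libraries.

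The total estimated count per library lay between 13099454 and 14115694. POX09752 itself had 0 counts in deletion replicates 1, 2 and 3, against 1568, 1375 and 1663 counts in Ku70, in keeping with the strain labels. Deletion replicate 3 stood apart from the other deletion libraries: across the 8807 genes averaging 1 FPKM or more, Pearson's r of log2(FPKM + 1) was 0.974 and 0.979 for its pairs, against 0.991 between deletion replicates 1 and 2 and 0.994 to 0.995 between Ku70 libraries. Each coefficient runs across genes, and genes do not count as replicates. The tables used here pair no ID with a gene name or product, so the 75 genes are given by ID, with no statement on what they encode, and no sequence could be shown.

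Because the values of deletion replicate 3 and the strain means chose the genes, those values are given as a description and carry no test. Of the eligible genes, 1.83% stood at least 2-fold higher and 1.14% at least 2-fold lower in deletion replicate 3 than in the mean of deletion replicates 1 and 2, together 2.97%. The share was 1.17% among genes with a strain ratio above 0.5 and under 2, which are the 75 genes. It was 10.8% among the 1474 eligible genes with a larger strain difference, which hold 159 such genes. The median fold between deletion replicate 3 and the other deletion libraries was 2.51 for the 41 high genes. The 34 low genes had a median of 2.25 in the other direction. Most members lay close to the limit, with 44 of the 75 under 2.5-fold, 20 at 3-fold or more and 12 at 4-fold or more. The counting intervals given beside single folds are 95% exact binomial intervals on the counts of replicate 3 against replicates 1 and 2. They reflect counting error alone, no molecular identifiers were described, and since the rule used the same counts they show precision only. The whole interval lay at 2-fold or more in 38 of the 75 genes, in 26 of the 41 high genes and 12 of the 34 low genes.

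**Figure D1:**
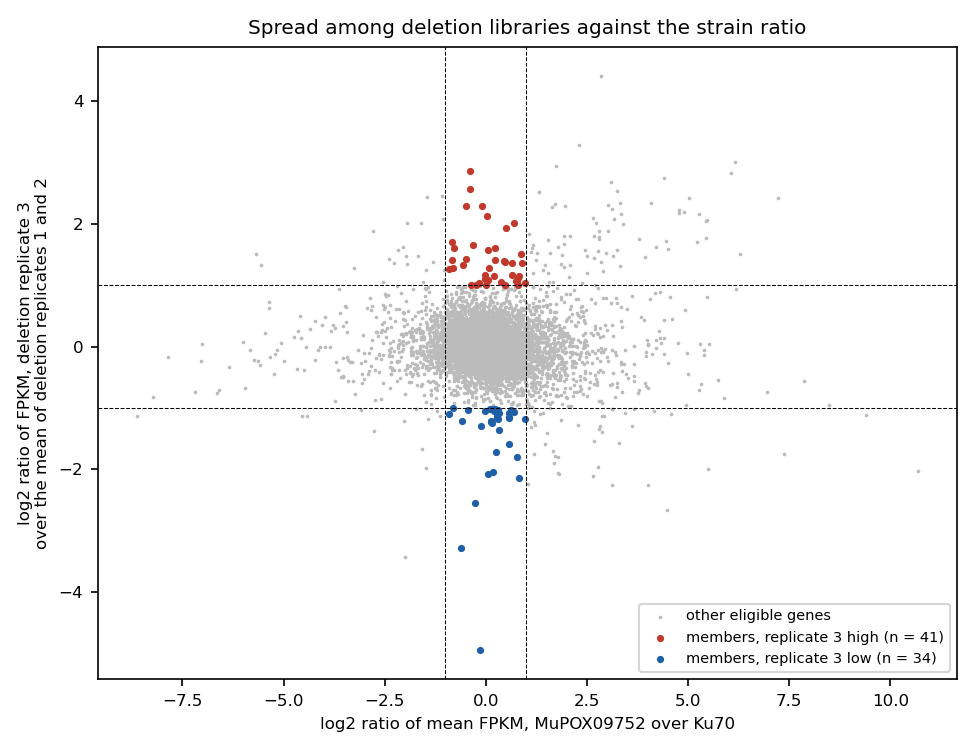
Each point is an eligible gene, with the log2 ratio of mean FPKM in MuPOX09752 over Ku70 on the x axis and the log2 ratio of deletion replicate 3 over the mean of deletion replicates 1 and 2 on the y axis. Dashed lines mark 2-fold, and the 41 high and 34 low members fill the upper and lower middle fields, reaching 7.25-fold above and 31.0-fold below.

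The members spanned a wide range of expression. The mean over all 6 libraries ran from 0.957 to 1108 FPKM for the high genes (median 24.0) and from 0.83 to 990.0 FPKM for the low genes (median 14.7), against a median of 32.0 FPKM over all eligible genes. Together the 75 genes took 0.671% of the counts of deletion replicate 3 and 0.648% and 0.612% of those of deletion replicates 1 and 2, against 0.624%, 0.610% and 0.626% in Ku70. The 41 high genes held 0.541% of the counts of deletion replicate 3 and 0.235% and 0.225% of those of deletion replicates 1 and 2, against 0.312%, 0.306% and 0.325% in Ku70. For the 34 low genes the shares were 0.130% in deletion replicate 3 and 0.414% and 0.387% in deletion replicates 1 and 2, against 0.313%, 0.303% and 0.301% in Ku70. In both directions the Ku70 share lay between those of the deletion libraries, which the rule favours. In such bulk samples fewer cells that express a gene and less of its RNA per cell cannot be told apart.

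Of the high genes, POX07408 was the most strongly expressed. It had 1909 FPKM in deletion replicate 3 and 993 and 852 FPKM in deletion replicates 1 and 2, against 981, 862 and 1052 FPKM in Ku70. Deletion replicates 1 and 2 lay among or beside the Ku70 libraries, and deletion replicate 3 stood 2.07-fold above the mean of the other two (counting interval 2.03 to 2.11). POX06430 had 674 FPKM in deletion replicate 3 and 331 and 314 FPKM in deletion replicates 1 and 2, against 259.9, 245 and 283 FPKM in Ku70. Its fold between deletion libraries was 2.09, and all 3 deletion libraries lay above all 3 Ku70 libraries. POX04325, with 339 FPKM in deletion replicate 3 and 158 and 146 FPKM in deletion replicates 1 and 2, against 183, 184 and 189.7 FPKM in Ku70, had both lower deletion libraries somewhat under the Ku70 range and the third well over it (2.23-fold). The spread of its Ku70 libraries was small beside that of the deletion libraries, since the gene averaged 214 ± 108 FPKM over the deletion libraries and 185 ± 3.71 FPKM over the Ku70 libraries (SD, n = 3 each).

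In 3 other strongly expressed high genes the arrangement was turned round: deletion replicate 3 had about the Ku70 level and the other two deletion libraries lay below it. POX05844 had 857 FPKM in deletion replicate 3 and 312 and 369 FPKM in deletion replicates 1 and 2, against 763, 779.7 and 744 FPKM in Ku70. Deletion replicate 3 was the highest of the 6 libraries by a small margin, and the other deletion libraries were under every Ku70 library by a wide one. POX04769 had 211 FPKM in deletion replicate 3 and 91.9 and 84.0 FPKM in deletion replicates 1 and 2, against 234, 251 and 245 FPKM in Ku70. POX03473 had 189 FPKM in deletion replicate 3 and 78.9 and 77.4 FPKM in deletion replicates 1 and 2, against 192, 204 and 208 FPKM in Ku70. In both genes deletion replicate 3 was slightly below the whole Ku70 range, and the strain ratios of 0.53 and 0.572 were near the lower limit of the rule. POX04769 averaged 129 ± 71.2 FPKM over the deletion libraries and 243 ± 8.82 FPKM over the Ku70 libraries (SD, n = 3 each), so the difference between its means was larger than either SD.

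The 5 largest folds among the high genes belonged to moderately or weakly expressed genes whose Ku70 level lay between the deletion libraries. POX01762 had 34.5 FPKM in deletion replicate 3 and 3.63 and 5.90 FPKM in deletion replicates 1 and 2, against 20.5, 19.4 and 18.0 FPKM in Ku70. That is 7.25-fold between deletion replicate 3 and the mean of the others, with a counting interval of 5.78 to 9.19. POX07470 had 80.2 FPKM in deletion replicate 3 and 14.2 and 12.9 FPKM in deletion replicates 1 and 2, against 44.9, 46.8 and 49.5 FPKM in Ku70, a fold of 5.93 (5.43 to 6.48). In both genes deletion replicates 1 and 2 were under every Ku70 library, and deletion replicate 3 was above every Ku70 library. POX06921 had 103 FPKM in deletion replicate 3 and 16.2 and 25.8 FPKM in deletion replicates 1 and 2, against 50.2, 51.6 and 52.3 FPKM in Ku70, a fold of 4.92. At lower levels POX05850 had 9.57 FPKM in deletion replicate 3 and 0.98 and 2.91 FPKM in deletion replicates 1 and 2, against 7.80, 5.29 and 5.66 FPKM in Ku70. Its fold was 4.92 (3.81 to 6.46), and deletion replicates 1 and 2 themselves differed 2.97-fold. POX05239 had 7.49 FPKM in deletion replicate 3 and 1.95 and 1.46 FPKM in deletion replicates 1 and 2, against 3.57, 3.55 and 3.53 FPKM in Ku70, a fold of 4.39. Its highest and lowest Ku70 libraries differed 1.01-fold.

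The 25 high genes not singled out by the naming rule reached 1.85 to 169 FPKM in deletion replicate 3 and 0.67 to 58.9 FPKM in deletion replicates 1 and 2, against 0.63 to 174 FPKM in Ku70. Their folds ran from 2.01 to 4.06. Deletion replicate 3 was the highest of all 6 libraries in 36 of the 41 high genes. In 25 of the 41, deletion replicates 1 and 2 were both below every other library. The rule favours both of these counts.

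**Figure D2:**
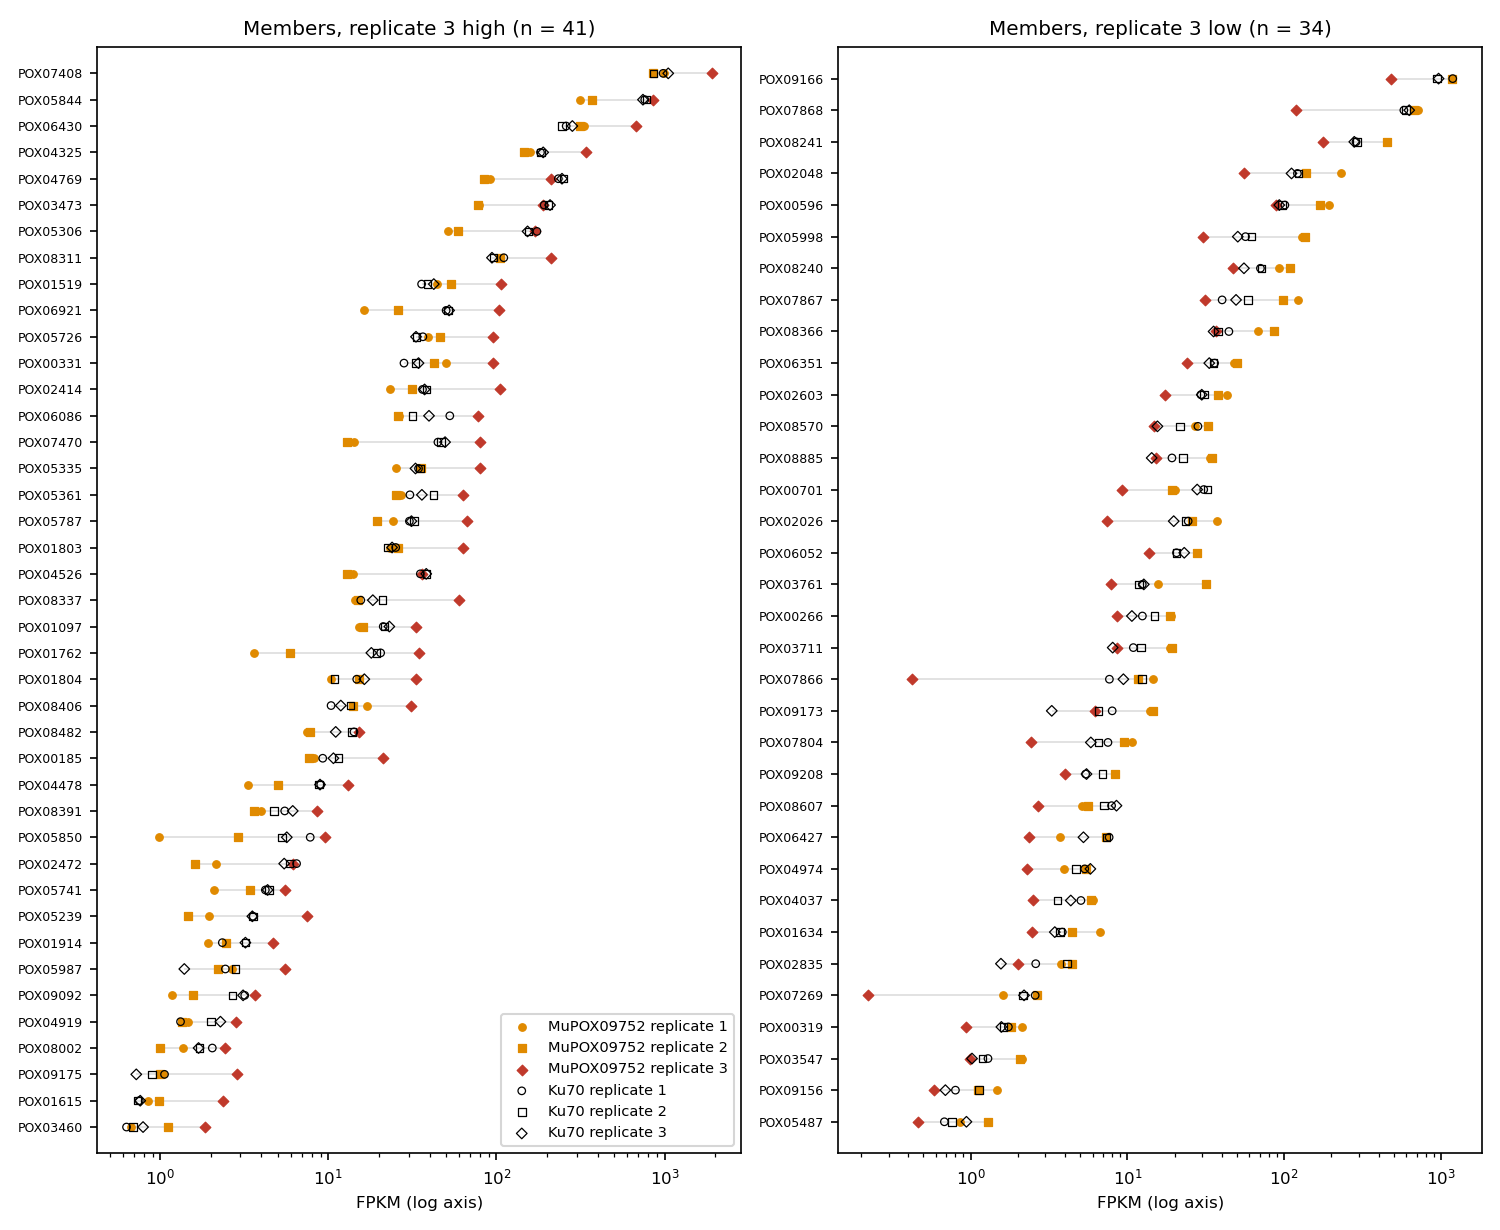
FPKM on a log axis for every member, with filled symbols for the 3 MuPOX09752 libraries and open symbols for the 3 Ku70 libraries, genes in order of mean level and a grey line for the range. Deletion replicate 3 (red diamonds) is the highest of the 6 libraries in 36 of 41 genes on the left and the lowest in 29 of 34 genes on the right. Both counts are favoured by the rule.

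Among the low genes, POX09166 had the highest mean level, with 482 FPKM in deletion replicate 3 and 1181 and 1182 FPKM in deletion replicates 1 and 2, against 1186, 944 and 964 FPKM in Ku70. Deletion replicates 1 and 2 matched the upper end of the Ku70 libraries, and deletion replicate 3 stood 2.45-fold under them (counting interval 2.37 to 2.54). POX07868 had 119 FPKM in deletion replicate 3 and 717 and 673 FPKM in deletion replicates 1 and 2, against 579, 599 and 626 FPKM in Ku70. Its Ku70 libraries and deletion replicates 1 and 2 lay within a narrow band, and deletion replicate 3 was 5.86-fold lower (5.65 to 6.09). POX08241 had 176 FPKM in deletion replicate 3 and 452 and 452 FPKM in deletion replicates 1 and 2, against 287, 291 and 279.5 FPKM in Ku70. Here the Ku70 libraries lay between the deletion libraries, and deletion replicates 1 and 2 differed by less than 1 FPKM.

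POX02048 had 55.7 FPKM in deletion replicate 3 and 231 and 137 FPKM in deletion replicates 1 and 2, against 121, 123 and 111 FPKM in Ku70. Its deletion libraries were all unlike each other, and deletion replicate 2 came close to the Ku70 libraries. POX00596 had 88.8 FPKM in deletion replicate 3 and 193 and 169.7 FPKM in deletion replicates 1 and 2, against 101, 96.8 and 92.9 FPKM in Ku70, so that deletion replicate 3 had about the Ku70 level and the other two were above it. POX05998 had 30.3 FPKM in deletion replicate 3 and 131 and 136 FPKM in deletion replicates 1 and 2, against 56.6, 61.6 and 50.5 FPKM in Ku70. The fold between its deletion libraries was 4.40, and the Ku70 level was intermediate.

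The largest fold of all 75 genes was in POX07866, with 0.42 FPKM in deletion replicate 3 and 14.5 and 11.6 FPKM in deletion replicates 1 and 2, against 7.67, 12.4 and 9.42 FPKM in Ku70. Deletion replicate 3 held 4 counts of this gene, which puts the 31.0-fold difference in a counting interval of 12 to 115. POX07269, the next largest with 0.22 FPKM in deletion replicate 3 and 1.61 and 2.66 FPKM in deletion replicates 1 and 2, against 2.58, 2.15 and 2.19 FPKM in Ku70, also had 4 counts in deletion replicate 3 and a fold of 9.70 (3.64 to 36.5). These wide intervals show that both folds are imprecise. POX02026 had 7.42 FPKM in deletion replicate 3 and 37.3 and 25.6 FPKM in deletion replicates 1 and 2, against 24.4, 23.5 and 19.7 FPKM in Ku70, a fold of 4.24 (2.82 to 6.65). The 20 low genes not singled out by the rule had 0.46 to 47.4 FPKM in deletion replicate 3 and 0.85 to 109 FPKM in deletion replicates 1 and 2, against 0.68 to 71.4 FPKM in Ku70, with folds of 2.03 to 4.14. In 29 of the 34 low genes deletion replicate 3 was the lowest of the 6 libraries, and in 23 deletion replicates 1 and 2 were both above every other library. Here too the rule favours both counts.

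Most members stood alone in the ID numbering, and 7 of the 75 had a member at the next ID number: POX01803 with POX01804, POX07866 to POX07868, and POX08240 with POX08241. Whether neighbouring ID numbers are neighbours on a chromosome could not be looked up. Counting also genes outside the 75, with the same count minimum, the same 2-fold limit and any strain ratio, 11 members lay in 7 runs of 2 or more consecutive IDs that stood at least 2-fold to the same side, and 64 lay in none. There were 34 such runs in the whole table, where 292 IDs with the count minimum passed 2-fold, none left out. Runs were thus not particular to the members.

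The longest of the 34 runs held 7 consecutive IDs, POX07862 to POX07868, and was low in deletion replicate 3 throughout. Its folds ran from 2.54 to 31.0. The last 3 IDs are members. POX07867 had 31.3 FPKM in deletion replicate 3 and 122 and 97.8 FPKM in deletion replicates 1 and 2, against 40.1, 58.5 and 49.2 FPKM in Ku70, a 3.5-fold difference between deletion libraries, and POX07866 and POX07868 are described above. The first 4 are no members. POX07862, left out for its level, had 2870.3 FPKM in deletion replicate 3 and 11799 and 10970.3 FPKM in deletion replicates 1 and 2, against 9558, 11394 and 10038 FPKM in Ku70. POX07863, left out likewise, had 1897 FPKM in deletion replicate 3 and 5035 and 4621 FPKM in deletion replicates 1 and 2, against 6126, 6066 and 5996 FPKM in Ku70. POX07864 and POX07865 fell outside the strain condition, with ratios of 0.357 and 0.332, and were 3.94-fold and 3.17-fold lower in deletion replicate 3. The next ID, POX07869, had at most 0.62 FPKM in any library and did not reach the count minimum. POX07861 before the run had 39.4 FPKM in deletion replicate 3 and 72.6 and 43.4 FPKM in deletion replicates 1 and 2. Deletion replicate 3 was thus 1.47-fold under their mean but near deletion replicate 2.

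POX08240 had 47.4 FPKM in deletion replicate 3 and 92.0 and 109 FPKM in deletion replicates 1 and 2, against 70.5, 71.4 and 55.3 FPKM in Ku70. It and POX08241 were followed by POX08242, with 415 FPKM in deletion replicate 3 and 947 and 928 FPKM in deletion replicates 1 and 2, against 1956, 2117 and 2057 FPKM in Ku70. The last of these was 2.26-fold lower in deletion replicate 3 and had a strain ratio of 0.374, so that all of its deletion libraries lay under Ku70. Of the pair of high genes, POX01803 had 63.5 FPKM in deletion replicate 3 and 23.1 and 26.1 FPKM in deletion replicates 1 and 2, against 25.2, 22.6 and 23.9 FPKM in Ku70. POX01804 had 33.0 FPKM in deletion replicate 3 and 10.3 and 15.2 FPKM in deletion replicates 1 and 2, against 14.8, 10.9 and 16.4 FPKM in Ku70. Their folds of 2.58 and 2.59 were nearly equal, and in both genes deletion replicate 3 alone lay well above Ku70. Their neighbours POX01802 and POX01805 had ratios of deletion replicate 3 to the others of 0.859 and 1.22.

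**Figure D3:**
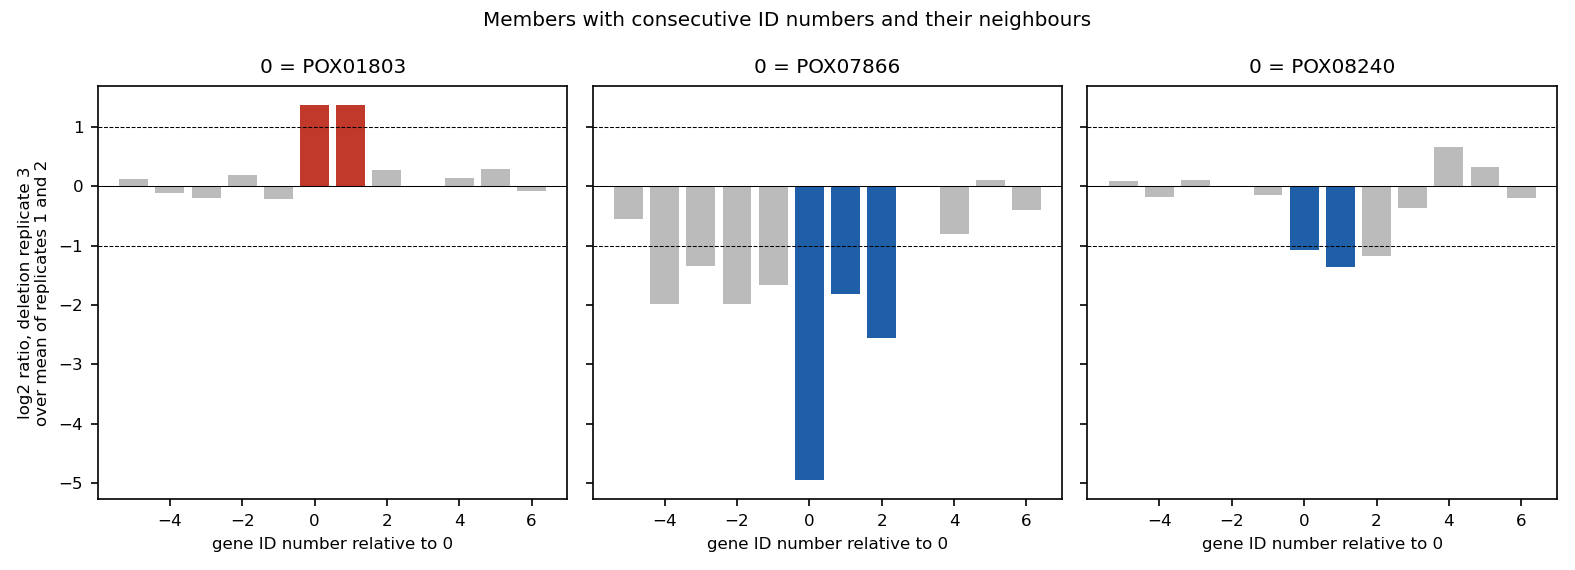
Bars give the log2 ratio of deletion replicate 3 over the mean of deletion replicates 1 and 2 for each gene ID within 5 numbers of 3 stretches of members. Members are coloured (red high, blue low), other genes grey, IDs with a mean count under 20 in the deletion libraries are not drawn, and dashed lines mark 2-fold. In the middle panel the 7 IDs from -4 to 2 all pass 2-fold on the low side.

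The Ku70 level gave 5 arrangements among the 75 genes, with 1.5-fold taken as near. In 24 of the 41 high genes the Ku70 mean was near deletion replicates 1 and 2 only, so that deletion replicate 3 was the library away from Ku70, by 1.51-fold to 3.26-fold. In 11 high genes it was near deletion replicate 3 only, and the mean of deletion replicates 1 and 2 was 0.317 to 0.653 of the Ku70 mean. In the other 6 it lay between them. Of the 34 low genes, 14 had Ku70 near deletion replicates 1 and 2 only, 8 had it near deletion replicate 3 only, 6 had it between, 5 had it near both and in 1, POX00701, it was more than 1.5-fold above both. POX00701 had 9.17 FPKM in deletion replicate 3 and 20.1 and 19.3 FPKM in deletion replicates 1 and 2, against 30.6, 32.4 and 27.8 FPKM in Ku70. Over the high genes the median ratio to the Ku70 mean was 1.88 for deletion replicate 3 and 0.718 for the mean of the others. Over the low genes these medians were 0.625 and 1.44. All 3 Ku70 libraries lay within the range of the deletion libraries in 48 of the 75 genes, which a rule that asks for a small strain ratio and a wide deletion range favours.

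**Figure D4:**
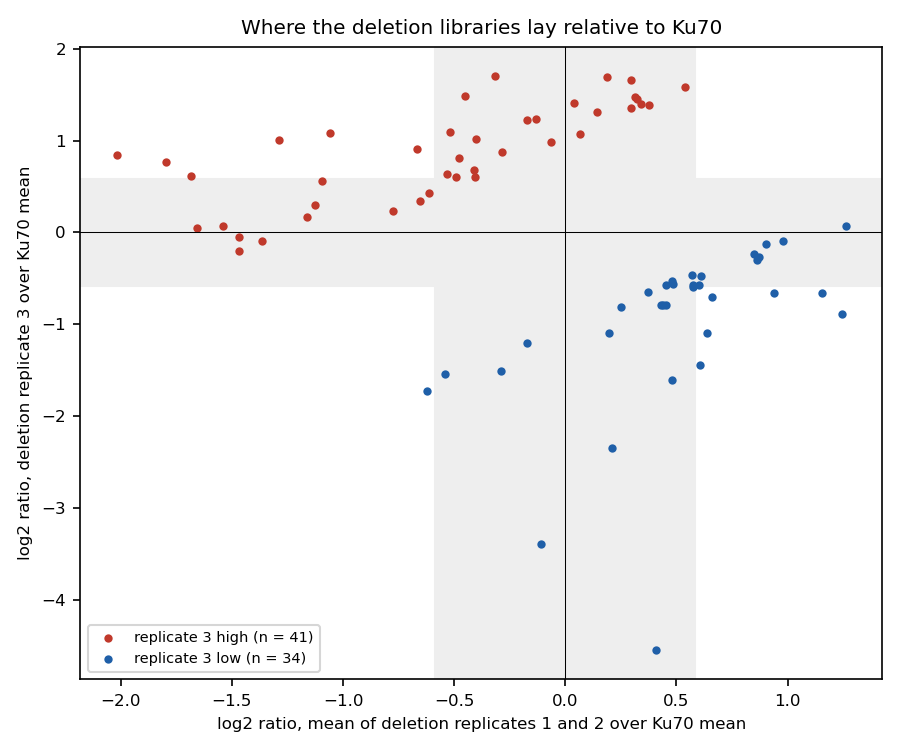
Each member is placed by the log2 ratio to the Ku70 mean of deletion replicates 1 and 2 (x axis, their mean) and of deletion replicate 3 (y axis), and grey bands mark 1.5-fold of Ku70. Of the 41 high genes (red), 24 lie in the vertical band alone and 11 in the horizontal band alone, and of the 34 low genes (blue), 14 and 8 do.

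The limit of 2-fold has no gap in the data. Just inside it on the high side were POX05741, with 5.50 FPKM in deletion replicate 3 and 2.09 and 3.41 FPKM in deletion replicates 1 and 2, against 4.22, 4.42 and 4.35 FPKM in Ku70 (fold 2.00), and POX08311, with 210.2 FPKM in deletion replicate 3 and 104 and 105 FPKM in deletion replicates 1 and 2, against 111, 95.8 and 94.1 FPKM in Ku70 (fold 2.01). Just outside were POX00176, at 724 FPKM in deletion replicate 3 and 333 and 395 FPKM in deletion replicates 1 and 2 (fold 1.99), and POX08797 (fold 1.99). On the low side POX08607 (fold 2.00) and POX06351 (fold 2.02) were just inside. POX04536 and POX04406 were just outside, both with a fold of 1.95, the second at 365 FPKM in deletion replicate 3 and 701 and 718 FPKM in deletion replicates 1 and 2.

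The split of the Ku70 libraries was not used by the rule. The coefficient of variation over the 3 libraries of a strain had a median of 50.4% over the 75 genes in the deletion strain, which the rule made large, and of 9.95% in Ku70. Over all eligible genes the medians were 10.2% in the deletion strain and 6.72% in Ku70. Over the 159 genes with the same 2-fold spread and a strain ratio outside 0.5 to 2 they were 65.4% and 10.8%. The 75 genes also had fewer counts: the mean over the deletion libraries had a median of 163, against 572 over eligible genes. The part of low counts in the Ku70 spread was not tested. The highest Ku70 library was at least 2-fold above the lowest in 3 of the 75 genes, and in 1.46% of eligible genes. These 3 were POX02835 (Ku70 2.6, 4.13 and 1.56 FPKM), POX09173 (Ku70 7.99, 6.54 and 3.29 FPKM) and POX05987 (Ku70 2.44, 2.81 and 1.39 FPKM). These 3 genes had few counts in Ku70: 27, 41 and 16 in POX02835, 32, 25 and 13 in POX09173, 50, 55 and 28 in POX05987. In each of them Ku70 replicate 3 was the lowest library. Of the 3, POX09173 and POX02835 are low genes. POX09173 had 6.25 FPKM in deletion replicate 3 and 14 and 14.5 FPKM in deletion replicates 1 and 2. Ku70 replicate 3 was at least 2-fold away from the mean of Ku70 replicates 1 and 2 in 2 of the 75 genes, and in 0.47% of eligible genes.

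Smaller differences in the same direction were common in the low genes. Ku70 replicate 3 was below the mean of Ku70 replicates 1 and 2 in 27 of the 34 low genes (79.4%), against 54.9% of all eligible genes, with a median log2 ratio of -0.14, against -0.02 over the eligible genes. In the high genes it was above that mean in 23 of 41 (56.1%), against 44.9% of all eligible genes, and the median log2 ratio was 0.01. Genes with the same 2-fold spread and a strain ratio outside 0.5 to 2 did not share this. Among them Ku70 replicate 3 was below that mean in 32 of 56 low genes (57.1%). It was above the mean in 31 of their 103 high genes (30.1%). The low genes were shorter at the median, a difference that was not tested. The length implied by count and FPKM had a median of 1452 bases in the high genes and 719.6 bases in the low genes, against 1315 bases in all eligible genes. It was under 500 bases in 10 of the 34 low genes (29.4%) and 4 of the 41 high genes (9.76%), against 11.5% of eligible genes. All 10 short low genes had Ku70 replicate 3 below the mean of the other Ku70 libraries, which 66.3% of the eligible genes under 500 bases had too. Of the 24 longer low genes 17 did (70.8%), against 53.4% of the longer eligible genes. The low genes also had fewer counts: the mean over the deletion libraries had a median of 105 in the low genes and 286 in the high genes, against 572 over the eligible genes. The part of gene length and of low counts in the low genes was not tested.

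**Figure D5:**
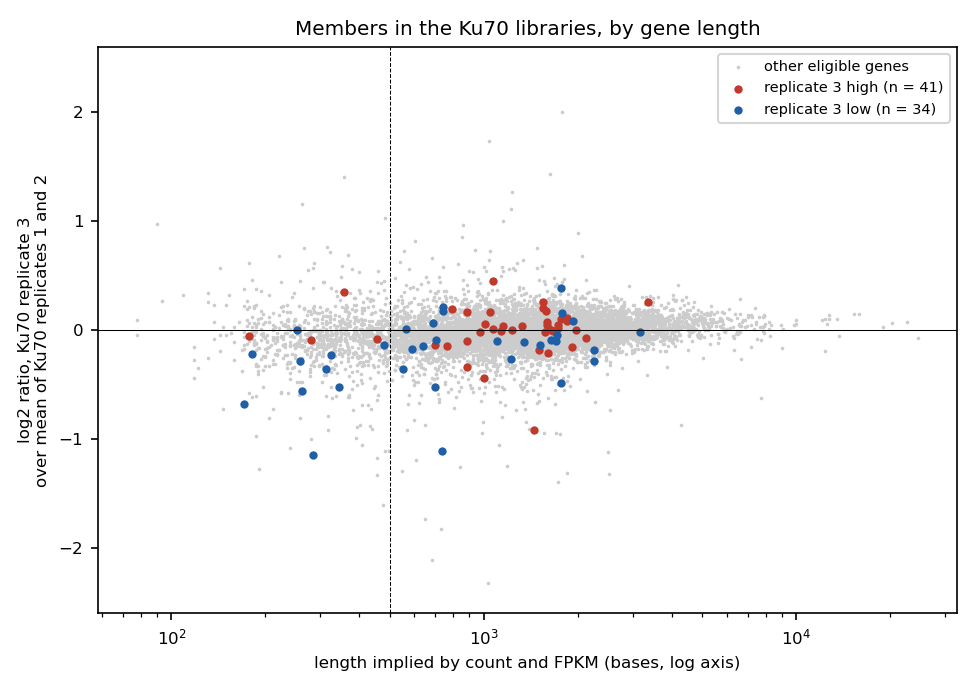
The y axis gives the log2 ratio of Ku70 replicate 3 over the mean of Ku70 replicates 1 and 2, which the rule did not use, and the x axis the length implied by count and FPKM (log axis, dashed line at 500 bases). The low members (blue) lie below 0 in 27 of 34 genes, and 9 eligible genes with a Ku70 level of 0 are not drawn.

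The mean of deletion replicates 1 and 2, but not their difference, entered the rule. Replicate 2 differed at least 2-fold from replicate 1 in 2 of the 75 genes, and in 0.685% of eligible genes. These were POX05850, given above, and POX03761, with 7.82 FPKM in deletion replicate 3 and 15.7 and 31.5 FPKM in deletion replicates 1 and 2. The median size of the log2 difference was 0.22 over the members, against 0.11 over eligible genes, so at the median these libraries lay further apart in the members, a difference that was not tested. This was not particular to the members. The median was 0.48 over the 159 genes with the same 2-fold spread and a strain ratio outside 0.5 to 2. The members had fewer counts (median mean count in the deletion libraries 163, against 572 over eligible genes), and the part of this in the difference was not tested. Replicate 2 was the higher of the pair in 21 of the 41 high genes and 18 of the 34 low genes. Deletion replicate 3 passed 2-fold against each of the other deletion libraries separately in 51 of the 75 genes.

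Between the strains, 72 of the 75 genes had a mean of at least 1 FPKM and were tested. Of these 2 were called higher and 3 lower in the deletion strain, where 60.1% of all 8807 tested genes were called, 29.8% higher and 30.2% lower (adjusted p under 0.05 by Benjamini-Hochberg in edgeR's quasi-likelihood test). The rule kept the strain ratio small and the spread of the deletion libraries large, so this low count follows from the choice of genes. The other eligible genes with a strain ratio above 0.5 and under 2 all had less than 2-fold between deletion replicate 3 and the others. Of these, 3303 of the 6306 tested were called, so the choice of genes shaped both counts. The 2 higher genes were POX00331 and POX08406, with strain ratios of 1.97 and 1.74. The 3 lower ones were POX00701, POX04769 and POX08607, with ratios of 0.533, 0.53 and 0.572. The ranges of the strains overlapped in 65 of the 75 genes, which the rule favours too. Over all eligible genes they did not overlap in 68.2%. Without deletion replicate 3 the same test called 49 of the 72 genes (68.1%), 22 higher and 27 lower, a share near the 66.4% called over all tested genes. The rule asked for deletion replicate 3 to lie far from the others, so more calls without it follow from the choice of genes too. Leaving out any other library in turn called 0 to 7 of the members higher and 0 to 3 lower. From deletion replicates 1 and 2 alone, the strain ratio stayed above 0.5 and under 2 in 59 of the 75 genes, was 2 or more in 3 and was 0.5 or less in 13.

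The 159 genes with the same 2-fold spread and a strain ratio outside 0.5 to 2 were the set most like the members. Of them, 103 were high and 56 low in deletion replicate 3, and 124 had a higher mean in the deletion strain. The median fold between deletion libraries was 2.51 for the high members and 2.25 for the low members, against 3.17 and 2.46 for the high and low genes of this set. In this set deletion replicates 1 and 2 differed at least 2-fold from each other in 25 genes, 24 of them high genes. Deletion replicate 2 was the higher of the pair in 21 of 41 high members, against 82 of the 103 high genes of this set, a share of 79.6%. These differences between the sets were not tested, since deletion values chose both.

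The exclusions removed 12 genes that met the ratio conditions, 7 of them for their level, 4 for their ID and POX02412 by name. Of the 12, 10 were low in deletion replicate 3. Of the 89 genes with at least 1000 FPKM in both strains, 7 were at least 2-fold lower in deletion replicate 3 and 2 at least 2-fold higher, at any strain ratio. Beside POX07862 and POX07863, the left-out gene POX07339 had 896 FPKM in deletion replicate 3 and 4610.1 and 4872 FPKM in deletion replicates 1 and 2, against 1927, 1811 and 1656 FPKM in Ku70, a 5.29-fold difference between deletion libraries. POX08583 was the high exception by level, with 2630.5 FPKM in deletion replicate 3 and 928 and 1410.2 FPKM in deletion replicates 1 and 2, against 2606, 3007 and 3348 FPKM in Ku70.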

How the data were processed

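RNA sequencing libraries of 6 mycelium samples were grouped by the strain in the labels (3 MuPOX09752, 3 Ku70), with the letters F, S and T of the labels taken as replicates 1, 2 and 3. For each of 9834 gene IDs the deposited tables give an estimated (expected) count and an FPKM value, per the file headers. RSEM 1.2.12, Bowtie2 2.1.0, BWA 0.7.10-r789 and DESeq2 are listed in the submitters' processing notes with no roles. The sources used here do not give the genome build, annotation or strandedness. The authors left the expected counts unnormalized and scaled FPKM by gene length and library size. The rule for the members was applied to FPKM as deposited. For the strain comparison, expected counts were rounded to whole numbers and tested with edgeR's quasi-likelihood test after TMM scaling, over genes averaging 1 FPKM or more (edgeR 4.0.16, limma 3.58.1, DESeq2 1.42.0, R 4.3.3). The scripts were tested on simulated data. Implied length is the count divided by FPKM and the library total, as a median over libraries with at least 10 counts. The members, rule and lists were chosen with earlier results of these data known. Genes were named by a rule: in each direction the 6 with the highest mean FPKM, the 5 with the largest fold, those nearest the 2-fold limit and the longest run of IDs, and over both the 3 with the widest Ku70 spread. Other genes, among them called members and run neighbours, were named after their values were seen. None of the IDs matched the RefSeq gene table of assembly ASM172317v3 (0 matches). P-values weigh the strain difference only against the spread between libraries, which may be technical.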

Additional observations from a re-analysis of the deposited data

How the results depend on the processing

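The number of high and low genes followed the limit chosen: 227 and 189 at 1.5-fold and 11 and 9 at 3-fold, against 41 and 34 at 2-fold. A strain ratio within 1.5-fold left 25 of the 41 high genes and a larger share of the 34 low genes. Count minimums of 10 and 50, other scalings and keeping the excluded genes gave 37 to 50 high and 23 to 47 low genes. With TMM-scaled counts 38 high genes were found, 37 of them shared with the 41. Leaving out 1 library gave 40 to 58 high and 29 to 45 low genes. Over the same 41 and 34 genes, with TMM-scaled counts, with a pseudocount of 1 FPKM and without deletion replicate 1 or 2, the median log2 ratio of deletion replicate 3 ran from 1.25 to 1.40 for the high genes and from -1.21 to -1.05 for the low genes. Of all tested genes 5290 were called between the strains, and 4454 to 5851 with a library left out, the lowest without Ku70 replicate 3 and the highest without deletion replicate 3. The 2 members called higher became 4 with RLE size factors, 5 with total counts, 5 with a mean of at least 5 FPKM, 6 with DESeq2 and 1 with limma at each pseudocount (1, 0.1 and 5). The 3 called lower became 5 with limma. With a library left out, the counts ran from 0 to 22 higher and from 0 to 27 lower. The most came without deletion replicate 3, whose values chose the genes. Without Ku70 replicate 1 they were 0 in both directions, and the cause of that was not tested. Same-letter libraries did not clearly pair (r of their deviations -0.02, 0.16 and 0.07 across genes). A replicate block for the letter gave 5282 calls in all, with 6 members higher and 6 lower. Chosen after seeing the data, the strain ratio without deletion replicate 3 stayed above 0.5 and under 2 in 59 of the 75 genes, and 24 of the 34 low genes had a length of at least 500 bases. Depth limits 15 members with a mean count under 50 in the deletion libraries, 11 of them low genes.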
